A study of Rattus norvegicus with 16 samples.

Results

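Mylk2, Ckm, Tpm1 and Cacna1s are 4 genes of contraction and excitation in skeletal muscle. Each was found by its platform gene symbol and had 1 probe, so the set is 4 of 1176 tested probes. The muscle studied was the EDL (extensor digitorum longus), which lies in the lower leg and is built mostly of fast fibres, from Brown-Norway rats aged 6 months. Control muscle kept its nerve and gave 8 arrays, while the second group, also 8 arrays, had been denervated for 2 months. The labels used here do not say how the nerve was interrupted, or whether the equal rat numbers of the groups mark the same animals. Each array was counted as 1 rat. Labelled cDNA had been hybridised to nylon membranes carrying spotted rat probes, and the deposited values are on a logarithmic scale whose base is not given. Differences are therefore in log units, always denervated minus control, with no fold changes. In whole-muscle RNA, fewer cells of a type and less RNA per cell cannot be told apart.

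A fast muscle fibre contracts when an action potential runs into its transverse tubules and moves the voltage sensor of the L-type calcium channel, whose pore-forming subunit is Cacna1s. The sensor opens the calcium store, calcium binds troponin, and tropomyosin (Tpm1 is the alpha form) slides on the actin filament so that myosin can attach. Calcium with calmodulin also switches on Mylk2, the skeletal muscle myosin light chain kinase, which phosphorylates the regulatory light chain of myosin and strengthens later twitches. The muscle creatine kinase Ckm refills ATP from creatine phosphate during the contraction. Fast fibres are known to be rich in Mylk2 and Ckm.

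On the deposited scale 1 of the 4 genes fell and the other 3 did not pass the test. Over all 1176 probes, 6.29% were called at an adjusted p under 0.05 in either direction and 0.850% as lower, 10 probes in all. Of the 74 called probes, 64 (86.5%) were higher. When each gene was described by its place among the probes of its own array, 2 of the 4 were called lower, Mylk2 and Cacna1s, where 1.79% of all probes were. The same 2 were called lower after quantile normalisation (2.30% of all probes), and only Mylk2 after centring of the arrays (1.28%). The median difference of the 4 was -0.31 on the deposited scale, beside 0.22 over all probes. With 4 values it is set by Tpm1 and Cacna1s, neither of which passed on that scale, and describes no shift of the set.

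Several properties of the arrays touch these values. The array of control rat 6 lay low throughout, with a median of 6.98 where the other 15 lay between 7.97 and 8.60. Denervated arrays spread more widely, with a standard deviation over probes of 1.76 ± 0.16 against 1.45 ± 0.26 in controls (SD, n = 8 per group). Rats 1 to 4 and rats 5 to 8 formed separate sets of arrays in both groups: the first principal component of the deviations from the group means held 20.8% of the variance and separated them completely. The labels name no batch, so values are also given within each set. On each array the lowest value was shared by 22 to 206 probes and is called the floor; such a value is only an upper bound.

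Mylk2 fell in denervated muscle. The 8 control arrays ran from 9.07 over a median of 10.26 to 11.98, and the 8 denervated arrays from 8.22 over 8.83 to 9.04. All 8 denervated values lay below every control value. The lowest control value was that of rat 6, the array that is low throughout, and the next lowest was 10.12 in rat 3. Means were 10.61 ± 0.98 and 8.74 ± 0.32 (SD, n = 8 per group), a difference of -1.87 (SE 0.37, 95% interval -2.61 to -1.13, limma adjusted p = 4.18e-04). By exact two-sided permutation over the arrays p was 0.000155, the smallest value that 16 arrays in these groups can give. Among all probes, Mylk2 was the only one whose denervated values all lay under all control values on the deposited scale (0.0850% of probes).

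The percentile rank is a probe's place in the order of its array's probes, as a percentage, with tied probes given their average place. It takes out the overall level and the spread of the array. Mylk2 ranked between 92.1 and 98.2 on the control arrays, with a median of 96.8. On the denervated arrays it ranked between 54.5 and 66.7, with a median of 60.8. Counted from the brightest probe, it stood at positions 22 to 93 in control muscle and at positions 392 to 536 after denervation. A bright probe had thus become one a little above the middle of the array in every denervated rat. The mean difference was -35.8 percentile points (SE 2.65, limma on ranks, adjusted p = 1.47e-08). In all, 140 probes lay under Mylk2 on each of the 8 control arrays and over it on each of the 8 denervated arrays, and 0 probes did the reverse. That count restates the rank fall of Mylk2. A probe that kept its own rank between the Mylk2 ranks of the 2 groups is counted without having changed. Among the 140 were the denervation-induced and developmental genes Runx1, Ncam1, Myog, Myod1, Tnnt2 and Casq2. Those 6 were picked out after their values were seen, and Myod1 itself did not pass in ranks (limma on ranks, adjusted p = 0.330).

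**Figure D1:**
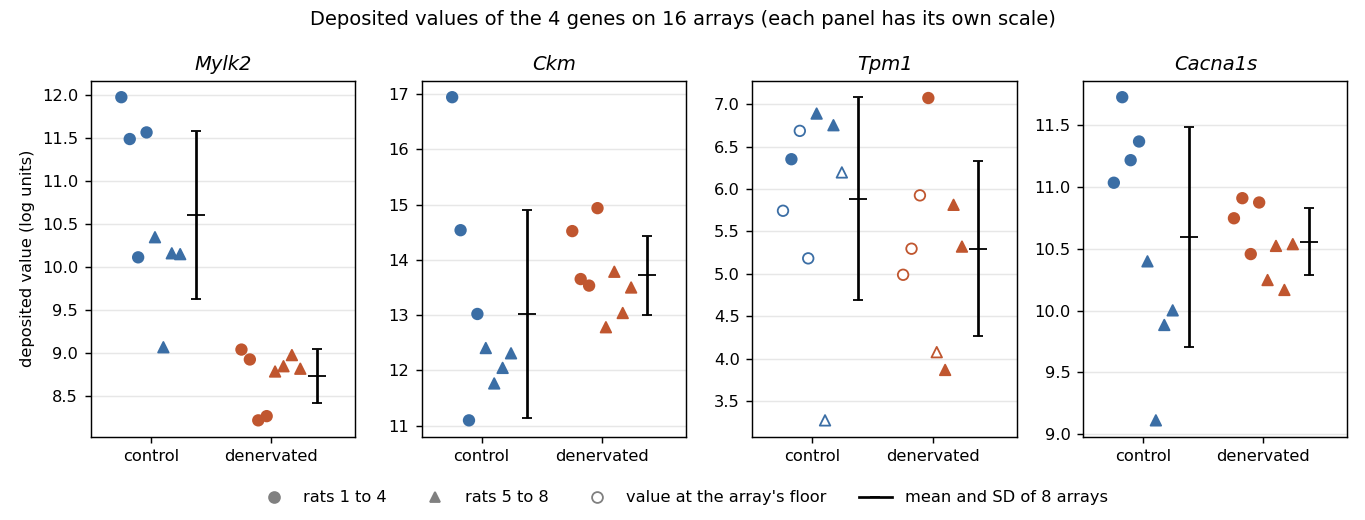
Deposited values (log units, vertical axis) of Mylk2, Ckm, Tpm1 and Cacna1s in 8 control and 8 denervated arrays, one point per array, with the mean and SD of each group beside the points. Open points lie at the floor of their array. The groups separate for Mylk2 only, and the control points of Mylk2, Ckm and Cacna1s are more widely scattered than the denervated ones.

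The size of the Mylk2 fall on the deposited scale differed between the sets of rats, but its size in ranks hardly did. In rats 1 to 4 the means were 11.29 ± 0.81 and 8.61 ± 0.43 (SD, n = 4 per group), a difference of -2.67 (adjusted p = 1.39e-04 in limma on those arrays). In rats 5 to 8 they were 9.93 ± 0.58 and 8.86 ± 0.08, a difference of -1.07 (adjusted p = 0.0840), which did not pass by itself. In neither set did the groups overlap, though the share of all probes that separate with 4 arrays per group was not counted. The denervated means of the sets were close together, and the control means lay further apart. The difference between the sets was 1.60 (SE 0.57) and did not pass (limma adjusted p = 0.194). In percentile points the falls were -35.4 and -36.2, a difference between sets of -0.81 (95% interval -11.5 to 9.86, adjusted p = 0.967). After quantile normalisation they were -2.38 and -2.45.

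Markers of other cell types also moved with the groups, on a scale where 64 of all 1176 probes were called higher and 10 lower. Of 4 measured fibroblast markers 3 rose: the matrix proteoglycans Bgn (by 2.30) and Dcn (by 1.40) and the calcium-binding S100a4 (by 2.88). The summed deposited value of these 4 probes ran from 32.2 to 43.1 in controls and from 44.7 to 49.3 after denervation. None of them was at the floor on any array. Of Bgn, Dcn and S100a4, Dcn did not pass after centring (adjusted p = 0.0782) or quantile normalisation (adjusted p = 0.180). Their part in the fall of Mylk2 was not tested. Of 6 measured Schwann cell and nerve markers 1, Nefm, rose, though not after centring (adjusted p = 0.126). The 6 probes together summed to 35.9 to 50.6 in controls and 45.4 to 52.6 after denervation. Of 3 macrophage and leukocyte markers none passed (23.7 to 30.4 and 28.6 to 30.9). Of 2 adipocyte markers 1, Scd, rose (9.93 to 15.7 and 13.0 to 18.4), and of 2 smooth muscle and vessel markers none did (10.9 to 19.3 and 13.4 to 19.4).

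Cacna1s had almost the same mean in both groups on the deposited scale. Control arrays ran from 9.11 over a median of 10.72 to 11.72, and denervated arrays from 10.17 over 10.53 to 10.91. The denervated values thus fell inside the control range, whose low end was again rat 6. Means were 10.59 ± 0.89 and 10.56 ± 0.27 (SD, n = 8 per group). The difference was -0.03 (SE 0.37, 95% interval -0.78 to 0.71, limma adjusted p = 0.976).

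Ranked within its array, the same probe separated the groups completely. It stood at percentile ranks of 95.3 to 98.3 in control muscle, with a median of 97.0, and of 90.8 to 93.2 after denervation, with a median of 92.5. Counted from the top, these were positions 21 to 56 and positions 80 to 109. All 8 denervated ranks lay below all 8 control ranks. The mean difference was -4.54 percentile points (SE 0.86, adjusted p = 0.00282 in limma on ranks), and exact permutation gave p = 0.000155. Complete separation downward in ranks was seen in 9 of 1176 probes (0.765%), which besides Mylk2 and Cacna1s were the following 7, all named because of these values: Actn4 (an actin cross-linking alpha-actinin), Agt (angiotensinogen), Ahsg (fetuin-A, a serum glycoprotein), Pfkfb1 (which makes and degrades a fructose bisphosphate that regulates glycolysis), Pkm (a glycolytic enzyme), Selenow (a selenoprotein) and Sult1c3 (a sulfotransferase). Their mean rank differences ran from -50.6 for Pfkfb1 to -5.55 for Pkm, and no theme was tested.

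**Figure D2:**
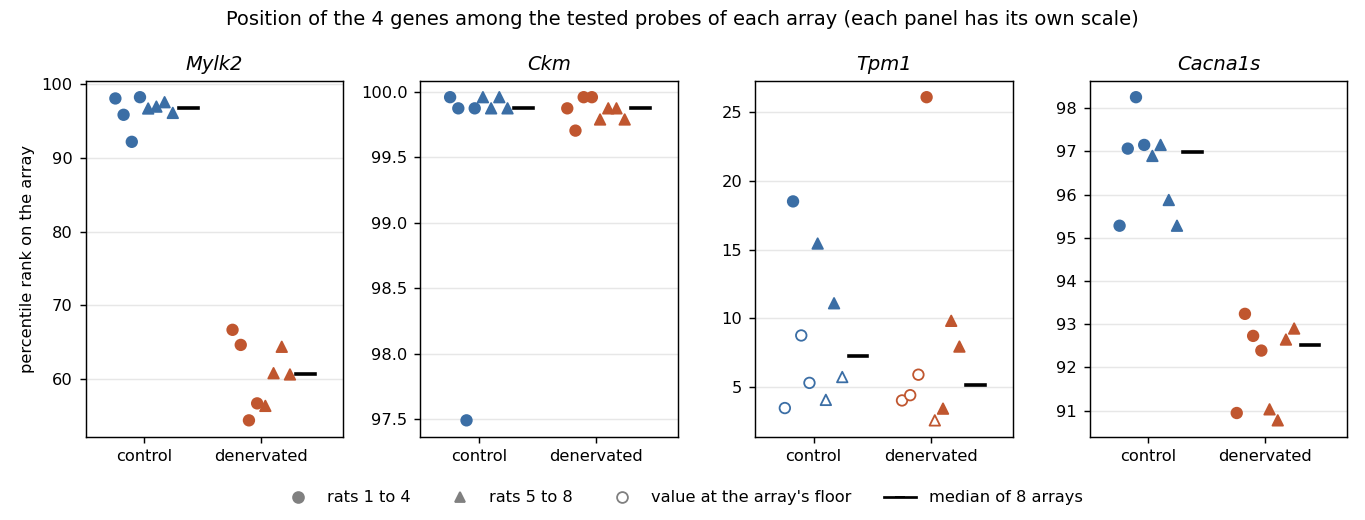
Percentile rank of each gene among the 1176 probes of its own array (vertical axis, a separate scale per panel), with the median of each group as a bar. Mylk2 and Cacna1s separate without overlap, Cacna1s over a range of only a few percentile points, while Ckm stays above 97 and Tpm1 below 27 on every array.

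The bright end of the arrays, where Cacna1s lies, was not equal in the groups, and its part in the result was not tested. The value at the 95th percentile was 10.26 ± 0.81 on control arrays and 11.02 ± 0.34 on denervated arrays, and at the 99th percentile 11.31 ± 0.99 and 12.41 ± 0.55 (SD, n = 8 per group). The median probe moved less, from 8.11 ± 0.48 to 8.32 ± 0.24. Cacna1s lay above the 95th percentile on all 8 control arrays and under it on all 8 denervated arrays. Only 7 probes passed it on every array, in the sense of lying under it on all control arrays and over it on all denervated ones: Tnnt2, S100a4, Eef1a1, Rack1, Tmod1, Cdc42bpa and Clec10a, named after their values were seen. Whether Cacna1s transcript fell, or held its level while other bright transcripts rose, cannot be told apart from ranks alone.

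**Figure D3:**
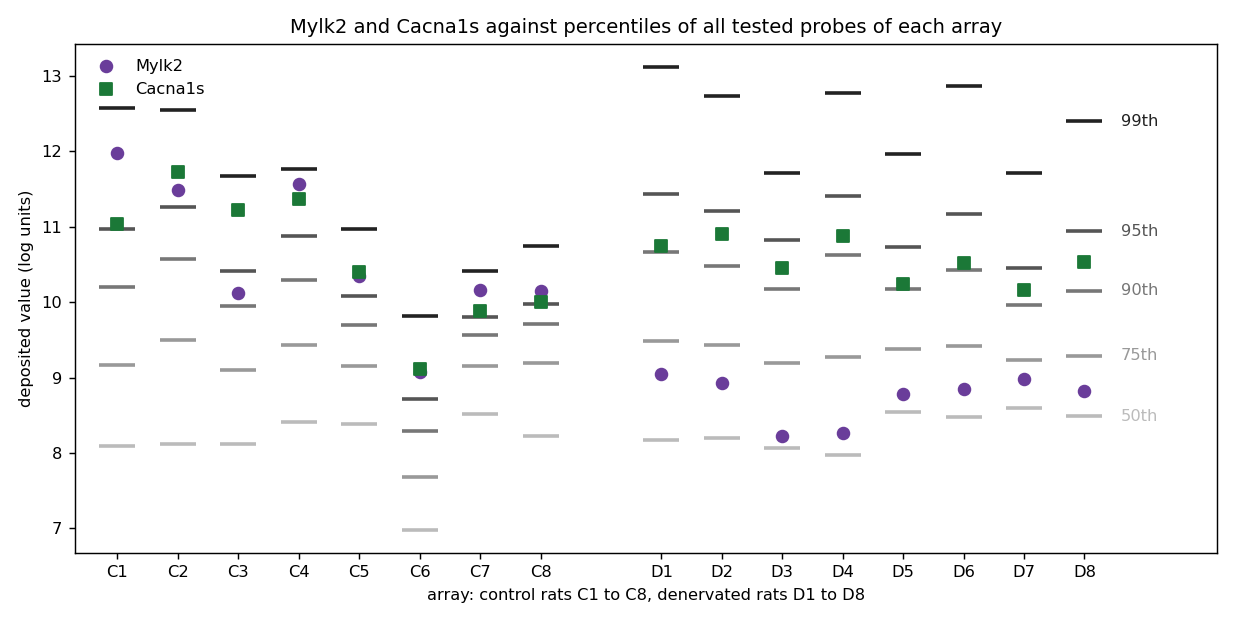
Deposited values of Mylk2 (circles) and Cacna1s (squares) on each array, beside the 50th, 75th, 90th, 95th and 99th percentile of its 1176 probes (grey bars). On control arrays both genes lie near or above the 95th percentile, apart from Mylk2 in rat 3; on denervated arrays Cacna1s lies between the 90th and 95th and Mylk2 between the 50th and 75th.

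The result for Cacna1s therefore turned on the scaling. Quantile normalisation, which gives all arrays one distribution, put it at -0.79 (SE 0.16, adjusted p = 0.00230), with no overlap between groups. The share of all probes that separate on the quantile-normalised scale was not counted. Centring alone left -0.24 (adjusted p = 0.754), and centring with scaling to one spread gave -0.67 (adjusted p = 0.337). Within the sets of rats the deposited values took opposite signs. In rats 1 to 4 the means were 11.33 ± 0.29 and 10.75 ± 0.21, a difference of -0.59, and the groups did not overlap. In rats 5 to 8 they were 9.85 ± 0.54 and 10.37 ± 0.19, a difference of 0.52, with overlap, in the set that holds control rat 6. Neither passed (adjusted p = 0.570 and adjusted p = 0.422), nor did the difference between the sets, 1.11 (adjusted p = 0.326). Over all probes the median deposited difference was -0.03 and 0.55 in the same sets. After centring, the Cacna1s differences were -0.51 and 0.02. In ranks both sets showed the same shift, -4.61 and -4.46 percentile points, each without overlap, and after quantile normalisation -0.85 and -0.72. With 4 arrays per group the rank shift passed in rats 5 to 8 and not in rats 1 to 4 (adjusted p = 0.0915). The share of all probes without overlap at that number of arrays was not counted.

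Ckm was among the brightest probes in both groups. Its control values ran from 11.09 over a median of 12.36 to 16.95, and its denervated values from 12.78 over 13.59 to 14.94. The groups overlapped, with the highest and the lowest value both in control rats, rat 1 and rat 3. Means were 13.01 ± 1.88 and 13.72 ± 0.71 (SD, n = 8 per group), a difference of 0.70 (SE 0.68, 95% interval -0.65 to 2.06, limma adjusted p = 0.624). By position it was the first or second probe on 7 of 8 control arrays, the exception being position 30 in rat 3, and it held positions 1 to 4 on all 8 denervated arrays. The mean rank difference was 0.24 percentile points (SE 0.55, adjusted p = 0.881).

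No call was made for Ckm under any scaling, and its sign was not settled. It stood at 0.50 after centring, at 0.04 after quantile normalisation and at -0.43 after centring and scaling. Rats 1 to 4 gave a deposited difference of 0.26, and rats 5 to 8 gave 1.15 without overlap of the groups (adjusted p = 0.0772). The medians over all probes in these sets were -0.03 and 0.55. The share of probes without overlap at 4 arrays per group was not counted. After centring and scaling, rats 5 to 8 gave -0.84, again without overlap but in the other direction. After quantile normalisation the rats 5 to 8 gave -0.42, and without control rat 3 all arrays together gave -0.25. On the deposited scale it was 1.27 without control rat 1 and 0.43 without control rat 3. A probe at the top of the array has no room to rise in rank, so ranks are a one-sided measure for this gene.

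Tpm1 was dim. Its probe was at the floor on 5 of 8 control and 4 of 8 denervated arrays, and the number of arrays at the floor did not separate the groups (Fisher's exact test, two-sided, p = 1). Deposited values ran from 3.27 over a median of 6.27 to 6.89 in controls and from 3.87 over 5.31 to 7.07 after denervation. The low control value of 3.27 was the floor of rat 6. Means were 5.88 ± 1.20 and 5.30 ± 1.03 (SD, n = 8 per group), a difference of -0.59 (SE 0.63, 95% interval -1.85 to 0.68, limma adjusted p = 0.684). Its percentile ranks were 3.49 to 18.5 in controls and 2.59 to 26.1 after denervation, with medians of 7.25 and 5.17. A rank at the floor is set by the number of probes tied there, so these ranks partly count floor probes.

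The Tpm1 difference was limited by the floor and varied with the arrays used. With all values raised to one common floor, 6.69 of control rat 3, it was 0.015 (adjusted p = 0.960). Most Tpm1 values lay at or under that common floor, so a value near 0 was largely fixed in advance. The deposited difference was -0.96 without control rat 6, where Tpm1 was at the floor. It was -0.38 without denervated rat 6, where Tpm1 was above the floor. Within the sets of rats it was -0.17 in rats 1 to 4 (adjusted p = 0.932) and -1.01 in rats 5 to 8 (adjusted p = 0.617). Alpha-tropomyosin is known as an abundant protein of fast muscle, yet this probe was at or near the floor in innervated EDL. Its values thus do not bear out the label of a fast-fibre gene, and 1 dim probe cannot refute it. Which Tpm1 transcripts the probe detects is not given in the sources used here. The probes of the related tropomyosins were bright for Tpm2 (beta form, 11.78 ± 0.92 and 12.38 ± 0.62 in the 2 groups) and Tpm3 (slow alpha form, 10.77 ± 0.79 and 11.80 ± 0.28). The non-muscle form Tpm4 was dim in controls, at the floor on 3 of 8 arrays. Levels of different probes are not comparable as amounts of RNA. Among the 4 tropomyosins none passed on any scale, and Tpm2 went from 0.60 as deposited to -0.60 after quantile normalisation.

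**Figure D4:**
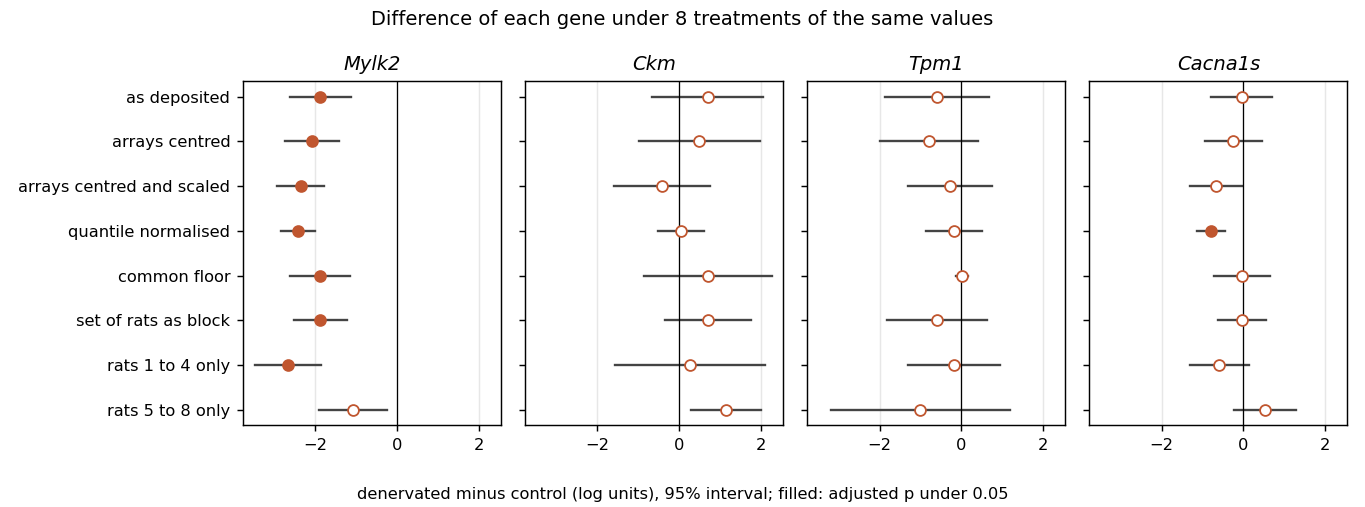
Difference of each gene between denervated and control arrays (log units, horizontal axis) with its 95% interval, for the deposited values, 4 other treatments of the arrays or their floor, a fit with the set of rats as a block, and each set of rats alone. Filled points have an adjusted p under 0.05. Mylk2 is lower in every row and filled in all but rats 5 to 8 alone; Cacna1s is filled only after quantile normalisation, and Ckm and Tpm1 never are.

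The start regions of Ckm and Cacna1s are shown as examples of muscle gene promoters with E-boxes, the letters that myogenic factors such as Myog and Myod1 bind. An E-box is spelled CANNTG, reads the same on both strands, and its CAGCTG form includes the central bases preferred by these factors. The runs are the 250 bases before the annotated start, 5′ to 3′ on the gene's strand, from RefSeq, assembly GRCr8, with each CANNTG in capitals. Ckm lies on the plus strand at chr1:88189211-88189460 and Cacna1s on the plus strand at chr13:50045418-50045667.
Ckm: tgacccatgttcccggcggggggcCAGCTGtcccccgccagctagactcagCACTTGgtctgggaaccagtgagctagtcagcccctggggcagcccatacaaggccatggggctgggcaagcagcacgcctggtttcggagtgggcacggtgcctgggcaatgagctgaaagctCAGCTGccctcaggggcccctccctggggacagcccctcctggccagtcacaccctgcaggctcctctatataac
Cacna1s: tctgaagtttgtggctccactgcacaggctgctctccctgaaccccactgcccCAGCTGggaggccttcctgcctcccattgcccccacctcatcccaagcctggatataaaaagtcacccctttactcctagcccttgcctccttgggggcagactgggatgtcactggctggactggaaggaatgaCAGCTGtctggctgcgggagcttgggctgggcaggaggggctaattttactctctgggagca

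The Ckm window held 3 CANNTG, of which 2 were CAGCTG, and the Cacna1s window held 2, both CAGCTG. Over all 33469 windows of the same length in the table, 65.5% held at least 1 CANNTG, 12.0% at least 1 CAGCTG and 1.04% at least 2. The Tpm1 window held 1 CANNTG and 0 CAGCTG, and RefSeq's table gave 3 of the 4 members an entry, Mylk2 being the one without. A match of letters is not a binding site, and the arrays measured no binding.

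The genes of the same processes were taken from lists of contraction and calcium signalling. Of 33 genes listed for fast contraction and excitation-contraction coupling, 4 were measured, and they are the 4 described here, so no fast myosin, fast troponin or ryanodine receptor stands beside them. Of the 14 skeletal muscle markers, Ckm and Cacna1s were measured, and both were well above the floor on all 16 arrays. Over all 1176 probes, 64 were called higher as deposited, 35 centred, 35 quantile normalised and 29 in ranks. The slow, cardiac and developmental list had 7 measured genes. Of these, 3 rose as deposited, centred, quantile normalised and in ranks: the embryonic and cardiac troponin T Tnnt2 by 5.34 (adjusted p = 1.44e-13), the embryonic myosin Myh3 by 3.68 (adjusted p = 2.15e-06) and the slow calsequestrin Casq2 by 1.77 (adjusted p = 0.00126). In controls Myh3 was at the floor on 7 and Tnnt2 on 4 of 8 arrays, so those rises are lower bounds. The probe named for the cardiac myosin Myh6 was the brightest one on 11 of 16 arrays, in both groups, and Ckm was the brightest on the other 5. Close relatives among myosin heavy chains can share a probe of this kind.

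Among 3 measured genes of calmodulin signalling, Mylk2 fell and Camkk2, a calmodulin-dependent kinase that activates other kinases, rose by 1.54 (adjusted p = 0.0300). That call held on the deposited scale alone: centred arrays gave an adjusted p = 0.0793 for Camkk2, ranks an adjusted p = 0.185, and quantile normalisation a difference of 1.29 with an adjusted p = 0.141. The calmodulin-binding Nrgn differed by 0.41 (adjusted p = 0.785). Of 6 genes of calcium stores, pumps and buffers 1 rose, Casq2. The plasma membrane calcium pump Atp2b3 stood at 0.60 (adjusted p = 0.395), the exchanger Slc8a1 at -0.10 (adjusted p = 0.938) and the buffer S100a1 at -0.41 (adjusted p = 0.677). Of 3 voltage-gated channel subunits none passed as deposited. They were Cacna1s, the calcium channel subunit Cacnb4 at 0.07 (adjusted p = 0.968) and the sodium channel Scn8a at 0.96 (adjusted p = 0.124).

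Of 8 thin-filament and actin-binding genes 2 rose and none fell on the deposited scale, where 64 of the 74 calls over all probes were higher. Tmod1, which caps the pointed ends of actin filaments, rose by 1.31 (adjusted p = 0.0237), and the actin-monomer binder Tmsb4x rose by 1.38 (adjusted p = 0.0300). Neither passed after centring (adjusted p = 0.0608 and 0.0793), and after quantile normalisation Tmod1 alone did, at 0.69 (adjusted p = 0.0350). Actn4 resembled Cacna1s: it stood at -0.68 as deposited (adjusted p = 0.295), at -1.49 after quantile normalisation (adjusted p = 4.06e-05) and at -9.93 percentile points in ranks (adjusted p = 0.00282). Beside Ckm, the list of high-energy phosphate transfer had 1 other measured gene, the muscle AMP deaminase Ampd1, at 0.73 (adjusted p = 0.340).

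**Figure D5:**
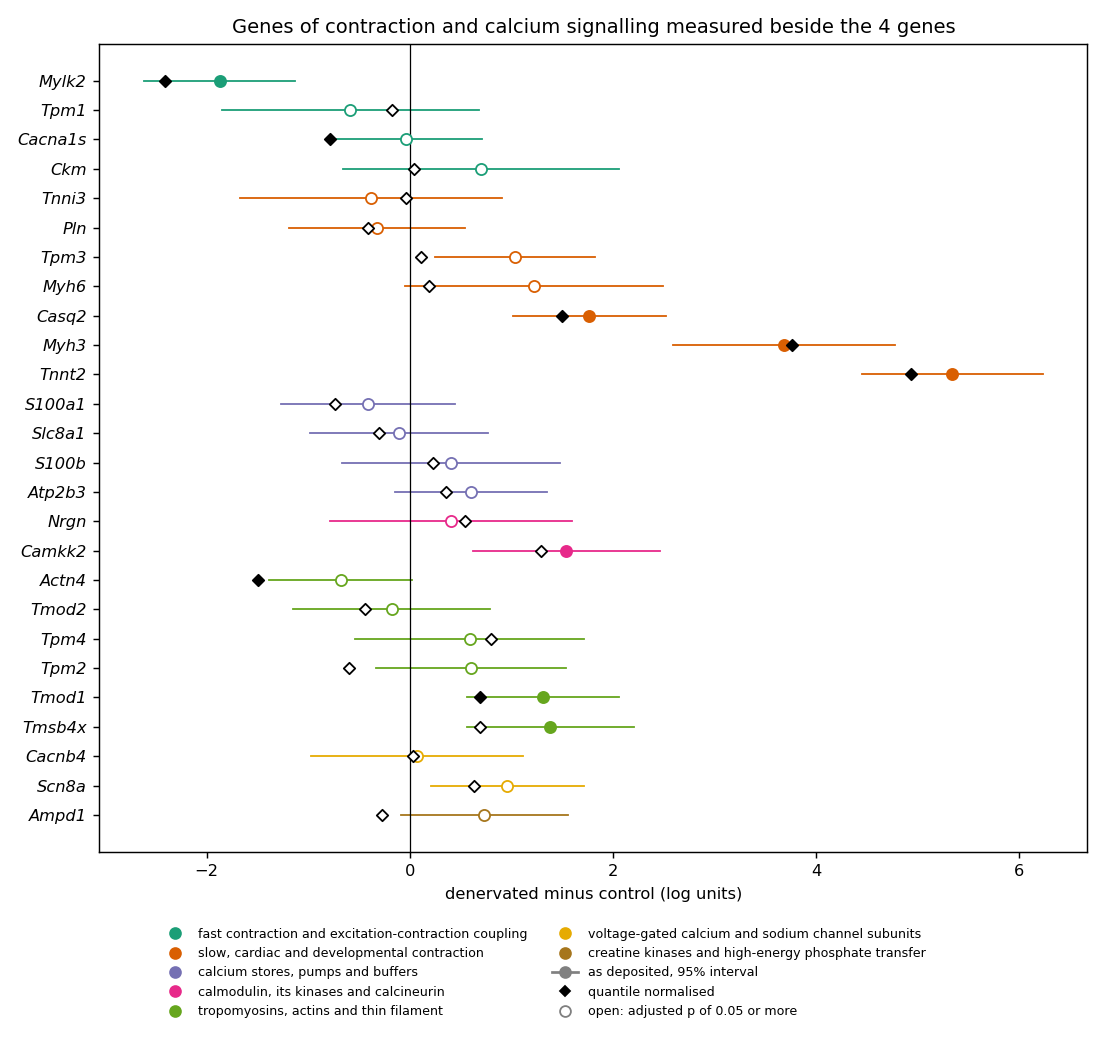
Differences between denervated and control arrays (log units, horizontal axis) of the 4 genes and of the measured genes of 7 lists of contraction and calcium signalling, with 95% intervals for the deposited values (circles) and the values after quantile normalisation (diamonds). Filled symbols have an adjusted p under 0.05. Mylk2 is the only gene shown that is filled below 0 on both scales.

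The probes most like each member were sought by Pearson correlation of percentile ranks over the 16 arrays, which share the difference between groups. Nearest to Mylk2 were Cacna1s (r = 0.89), Actn4 (r = 0.85) and the sulfotransferase Sult1c3 (r = 0.85). Within the 8 control arrays the correlation of Mylk2 with Cacna1s was -0.60, and within the 8 denervated arrays -0.04, so their likeness was that of the group means. Cacna1s was nearest to Mylk2, Pfkfb1 (r = 0.83) and the lactate transporter Slc16a3 (r = 0.78). Within the control and the denervated arrays its correlation was -0.31 and 0.17 with Pfkfb1, and 0.51 and 0.36 with Slc16a3. On the deposited scale Pfkfb1 fell by 2.13 (adjusted p = 6.76e-04), and Slc16a3 fell by 1.47 (adjusted p = 0.0201).

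For Ckm the nearest probes were Ampd1 (r = 0.95), the ribosomal protein gene Rpl5 (r = 0.91) and the respiratory chain subunit gene Ndufa5 (r = 0.90). Those values did not hold without the 2 arrays farthest from the median Ckm rank. With control rat 3 and denervated rat 2 left out together they were 0.02, -0.43 and 0.14 (n = 14). Control rat 3 stood much the further of the 2, with a Ckm rank of 97.5 against 99.7 in denervated rat 2. For Tpm1 they were Nudt6 (r = 0.75), Gfap (r = 0.70) and Nefh (r = 0.64), and without control rat 2 and denervated rat 4 the values were 0.71, 0.64 and 0.31 (n = 14). Many of the Tpm1 ranks are ties at the floor.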

How the data were processed

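The authors imaged the membranes on a phosphorimager, quantified them with Array Vision and normalised by linear regression, per the labels. What was deposited is a score, log-scaled with an unstated base; background correction is not given in the sources used here. Of 1185 probes, 9 of reference genes on another scale were left out. The platform table named 1106 of 1176 tested probes with 1 gene, 2 with several and 68 with none; 1099 gene IDs matched RefSeq's GRCr8 table, used for current names, and the brightest probe stood for each of 10 genes with several. Members, lists and tests were chosen with earlier results of these data known.

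Denervated and control arrays were compared across all tested probes with limma 3.58.1 in R 4.3.3 (lmFit, eBayes with trend, two-sided), with Benjamini-Hochberg adjusted p under 0.05 as the threshold. The script was tested on simulated data. Single values were also compared by exact permutation over 12870 groupings (Python 3.11.15, scipy 1.17.1). Ranks were taken within arrays, ties averaged, and fitted likewise. The number of arrays limits the precision. The labels number 8 rats in each group and do not say whether equal numbers are the same animal; p-values measure the spread between these arrays. Named genes were the members, the genes of the lists (by default those of lowest adjusted p) and, per member, the 3 probes of most similar ranks, leaving out acetylcholine receptor genes; others are said to be chosen after their values were seen. Alternatives covered scaling, filter, floor, variance model, array weights, pairing, set of rats and each array left out. The measured genes of 1 list are not reported here. Figures used matplotlib 3.10.9.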

Additional observations from a re-analysis of the deposited data

Results flagged for a closer look

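Within the groups of 8 arrays, a highest or lowest value was picked out where its gap to the next exceeded Dixon's 95% critical value; 16 groups were examined and 4 values stood out, where chance gives about 1 in 20 groups. Control rat 3 stood apart in rank for Mylk2, at 92.1 where the other controls lay between 95.8 and 98.2, and for Ckm, at 97.5 where the others lay between 99.87 and 99.96. Control rat 6 had the lowest deposited Tpm1 value, 3.27, which is the floor of that array, where the others lay between 5.18 and 6.89. Denervated rat 4 had the highest Tpm1 rank, 26.1, where the others lay between 2.59 and 9.82.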

How the results depend on the processing

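The 74 called probes became 42 without a mean-variance trend, 113 with rat number as a block, 141 with that block on centred arrays, 131 with the set of rats as a block, 30 in rats 1 to 4, 139 in rats 5 to 8, 40 after centring and scaling, and 43 to 98 without 1 array (49, 45 and 48 without control rats 5, 7 and 8, and 43 and 46 without denervated rats 1 and 6). The cause was not tested. The main test did not take rat numbers as pairs, and whether they are pairs was not settled. The correlation of same-numbered deviations was above 0.1 in 7 of 8 numbers and 0.06 in the lowest. Its median was 0.17, against 0.07 for other numbers of the same set and -0.11 across sets. Of 8 controls, 2 correlated best with their own number. The block by rat number changed no member's call.

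Mylk2 kept its call under 31 of 32 alternatives and lost it in rats 5 to 8 alone (-1.07); without 1 array it lay between -2.09 and -1.68. Its rank and quantile-normalised falls passed in all 19 alternatives each. Cacna1s passed after quantile normalisation (-0.79) and in ranks (-4.54). It changed sign in rats 5 to 8 (0.52), where the median over all probes was 0.55. Without 1 array Cacna1s ran from -0.25 (control rat 6) to 0.13 (control rat 2). Its rank fall lay between -4.73 and -4.30 without 1 array and did not pass in rats 1 to 4 (-4.61). Ckm turned to -0.43 after centring and scaling. Its rank difference was -0.085 in rats 5 to 8 and -0.058 to 0.29 without 1 array, and after quantile normalisation -0.42 in rats 5 to 8 and -0.25 to 0.13 without 1 array. Tpm1 was 0.015 with a common floor, but most of its values lay at or under that floor, so the sign is not informative. In ranks it was 1.09 in rats 1 to 4 and -3.60 to 0.33 without 1 array, and 0.048 in rats 1 to 4 after quantile normalisation. Tpm1 was not among the brighter probes, so that alternative gives no value. Leaving out arrays, splitting the sets and the block by rat number on ranks and quantile-normalised values, and centring with scaling, were added after the data were seen.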
